A study of Mus musculus with 8 samples.

Results

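Collagens are the proteins of the extracellular matrix that form a triple helix, and each collagen is assembled from chains encoded by genes with names such as Col1a1. The chains were taken from a microarray study of mouse liver as every transcript cluster (a group of probes that the array reads as 1 gene) whose gene symbol was Col, a number, the letter a and a number, with no filter on signal. This gave 46 of the 35556 clusters on the array, which stood for 44 of 19938 named genes. Col6a5 and Col6a6 had 2 clusters each, and the cluster with the higher mean signal stood for the gene. The arrays were Affymetrix Mouse Gene 1.0 ST arrays hybridised with liver RNA of male C57Bl/6J mice, whose age the labels do not give. The 4 groups were a high-fat diet with sodium arsenite in the drinking water (HFD+As), a high-fat diet with plain deionized water (HFD), a low-fat diet with arsenite (LFD+As) and a low-fat diet with plain water (LFD). Fat supplied 42% of calories in the high-fat and 13% in the low-fat diet, and the arsenite water held 3 mg of inorganic arsenic per litre. Exposure lasted 10 weeks by the protocols but 90 days by the source label. Each group had 10 mice, whose RNA was pooled 5 and 5, so that every group has 2 arrays and the spread between them is one between pools.

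Fibrillar collagens, mainly types I and III with some type V, form the tensile fibres of portal tracts and of scar tissue. Type IV collagens build the sheets of basement membranes, type VI forms beaded filaments next to cells, and fibril-associated chains such as type XIV decorate the surface of fibres. In liver, hepatic stellate cells and portal fibroblasts are the main makers of fibrillar collagen, and their activation to myofibroblasts is the usual course of fibrosis. Types XV and XVIII lie in or beside basement membranes and carry a C-terminal domain (endostatin in type XVIII) that can be cut off, and hepatocytes are a main source of type XVIII in liver. Chains are hydroxylated and folded in the endoplasmic reticulum, trimmed by proteases outside the cell and cross-linked by enzymes of the lysyl oxidase family.

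The promoters of Col18a1 are shown because it was the chain whose level differed most between the groups. The gene lies on the minus strand at chr10:77052178-77166530 of build GRCm38.p6, a span of 114 kb, and it has separate starts for a short and for longer forms of the protein, the longer ones made mainly in liver from the downstream start. RefSeq windows of 300 bases around a start are given 5′ to 3′ on the gene's strand at chr10:77166481-77166780 for the upstream start and chr10:77113656-77113955 for the downstream start, 52.8 kb apart. Capitals mark the GC box, searched as GGGCGG and its reverse complement CCGCCC. The array's single cluster did not separate the forms.
Col18a1 upstream start: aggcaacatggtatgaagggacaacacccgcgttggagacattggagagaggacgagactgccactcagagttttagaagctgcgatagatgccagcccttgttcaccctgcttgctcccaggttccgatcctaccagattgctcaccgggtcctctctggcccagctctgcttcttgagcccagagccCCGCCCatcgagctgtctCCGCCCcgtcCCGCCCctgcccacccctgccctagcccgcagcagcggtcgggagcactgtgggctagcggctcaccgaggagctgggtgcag
Col18a1 downstream start: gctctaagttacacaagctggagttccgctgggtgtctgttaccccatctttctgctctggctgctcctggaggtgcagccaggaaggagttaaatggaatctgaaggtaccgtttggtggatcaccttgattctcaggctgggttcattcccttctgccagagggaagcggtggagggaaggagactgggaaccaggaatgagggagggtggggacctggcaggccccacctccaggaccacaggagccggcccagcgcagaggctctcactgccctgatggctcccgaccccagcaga
The upstream window holds 3 GC boxes and 1 CCAAT box (CCAAT or ATTGG), and the downstream window holds 0 of both and 0 TATA boxes (TATAAA or TTTATA). Col4a1 and Col4a2, which together form the most widespread type IV molecule, lie head to head on chromosome 8, and their annotations overlap by 85 bases. The windows of both starts share 78 bases at chr8:11312777-11312854, shown on the plus strand with its 1 GC box in capitals.
Col4a1-Col4a2 shared stretch: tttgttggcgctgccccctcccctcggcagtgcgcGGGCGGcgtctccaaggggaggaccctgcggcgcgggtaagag
RefSeq windows were at hand for 35 of the 44 genes, 38 windows in all. A GC box stood in 23 of the 38 windows and in 35.7% of the 32851 windows of all genes. A CCAAT box stood in 13 of the 38 windows and in 37.4% of all. A TATA box stood in 5 of the 38 windows and in 13.6% of all. These matches describe the letters of the windows only.

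The values are log2 signals, on which 1 unit is a doubling. Array medians lay between 7.08 and 7.18. Signals of different probes are on scales of their own, so levels are compared between groups and not between genes. No detection calls came with the values, so it is not known which dim signals exceed background. Hepatocyte marker genes averaged 14.03 to 14.17 in every array. Genes in the upper 60% by mean signal over all 8 arrays (above 6.97) were tested, 11963 in all. Of the 44 chains, 37 passed, with mean signals between 7.09 and 10.2, and 35 of these lay under 8.5. The chains just above the limit were Col4a5 (7.09) and Col8a1 (7.11), and those just below it were Col8a2 (6.96) and Col5a2 (6.91). The 7 chains below it were Col5a2, Col4a6, Col8a2, Col10a1, Col12a1, Col19a1 and Col28a1, whose differences lay between -0.27 and 0.30 in every comparison, with a smallest adjusted p of 0.356 when all named genes were fitted together. Over the 8 arrays the whole range of a tested chain was 0.29 log2 units in the median, and under 0.5 for 35 of the 37. The exceptions were Col18a1, with a range of 0.90, and Col14a1, with 0.81. In bulk liver RNA, fewer cells of a type and less RNA per cell cannot be told apart.

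**Figure D1:**
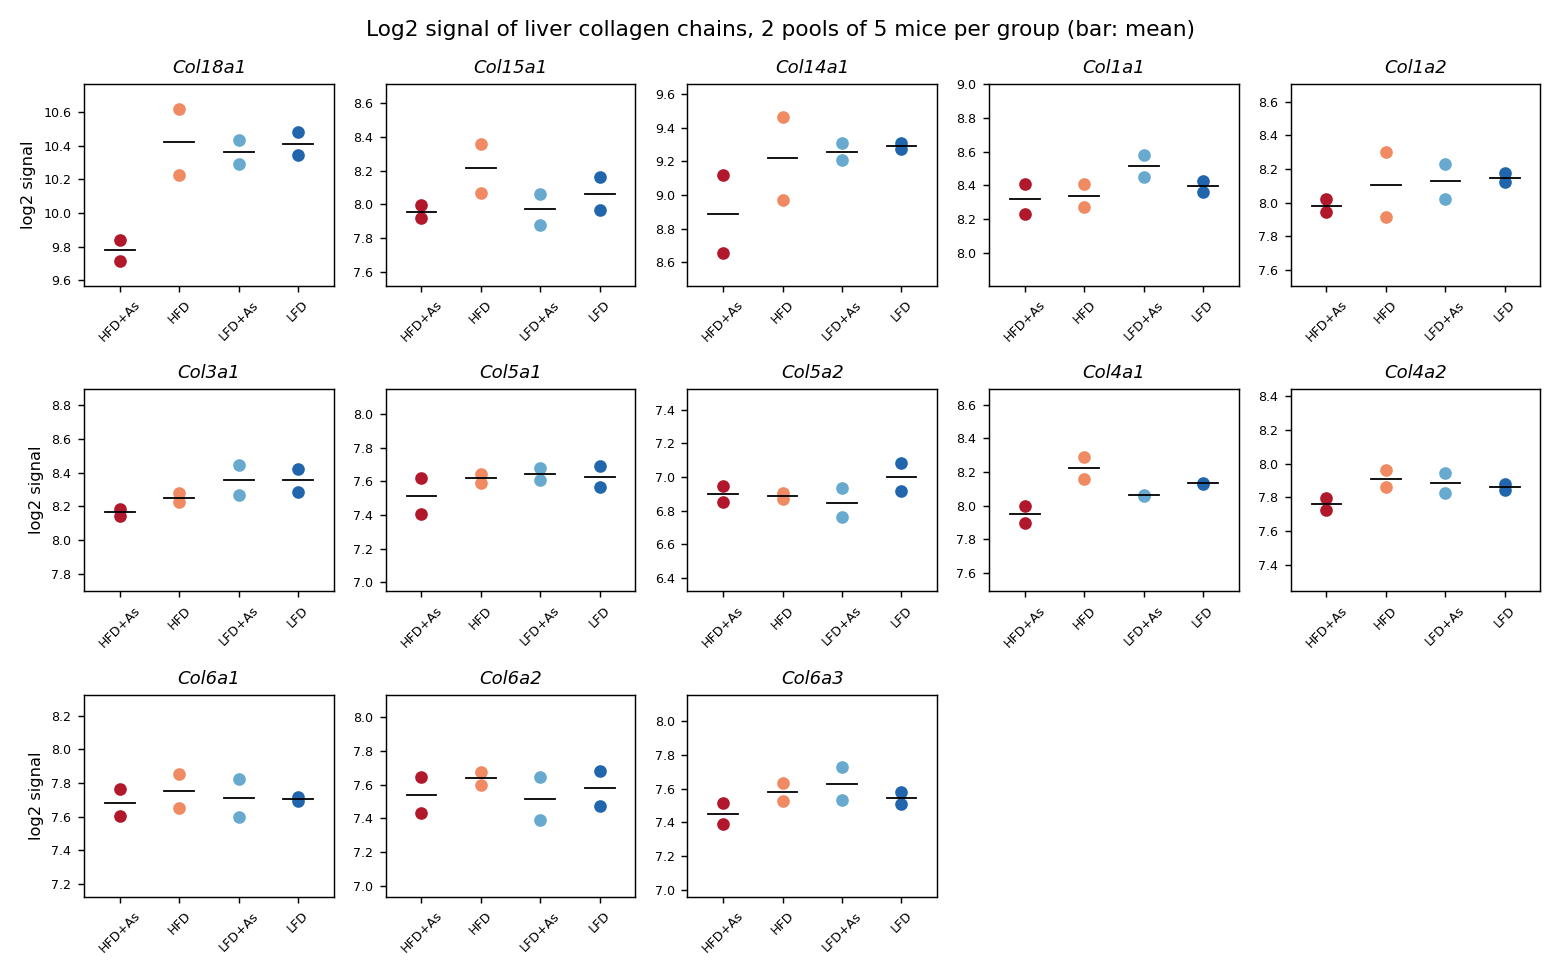
Log2 signal (y axis, its own range in each panel but the same height in log2 units) of 13 chains known from normal or scarred liver, in HFD+As, HFD, LFD+As and LFD (x axis). Each point is 1 array of a pool of 5 mice and each bar is the mean of the 2 arrays. The HFD+As points of Col18a1, at 9.72 and 9.84, lie below every other point of that panel. The same holds, by smaller gaps, for Col3a1, Col4a1 and Col4a2. In the remaining panels the HFD+As points overlap those of some other group. The share of all genes with this separation was not counted.

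The study asks what the high-fat diet and arsenite do to the liver alone and together. With both exposures combined, 1 collagen chain passed the test and it was lower. Col18a1 fell by 0.63 log2 units in HFD+As livers relative to LFD livers, to 0.646 of the LFD level, and the other 36 tested chains passed no test in that comparison. Across all genes 16.0% were called in either direction at an adjusted p under 0.05 (limma, Benjamini-Hochberg over all genes tested) and 12.4% were called lower, against 1 of 37 chains. Among the 6121 genes with a mean signal under 8.5, a limit set after the data were seen, 7.78% were called, and the chains under that limit gave 0 calls.

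Col18a1 had log2 signals of 9.72 and 9.84 in HFD+As, 10.62 and 10.23 in HFD, 10.29 and 10.44 in LFD+As, and 10.48 and 10.34 in LFD. Both HFD+As arrays lay below all 6 others, and the other 3 groups overlapped. The share of all genes below all 6 others was not counted, and 41.4% of all genes had both HFD+As arrays below both LFD arrays. Means were 9.78 ± 0.088 in HFD+As, 10.42 ± 0.28 in HFD, 10.36 ± 0.10 in LFD+As and 10.41 ± 0.096 in LFD (SD, n = 2 each). The difference between HFD+As and LFD was -0.63 (SE 0.14, 95% interval -0.93 to -0.33, adjusted p = 0.0115). That between HFD+As and HFD was -0.64 (interval -0.94 to -0.34, adjusted p = 0.0339), and that between HFD+As and LFD+As was -0.58 (interval -0.88 to -0.28, adjusted p = 0.0268). These 3 comparisons share the HFD+As arrays and are not independent. Neither exposure alone moved Col18a1 past the test, with a difference of 0.01 in HFD against LFD (interval -0.29 to 0.31) and of -0.05 in LFD+As against LFD (interval -0.35 to 0.25). The interaction, which is the arsenite difference on the high-fat diet minus that on the low-fat diet, was -0.59 (SE 0.20, interval -1.02 to -0.17, adjusted p = 0.264), so the test across all genes did not call it. Its p without adjustment was 0.0098.

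The calls for Col18a1 depended on single arrays and on the processing. Against LFD it was lost without LFD replicate 1 (-0.56, adjusted p = 0.0951) and without HFD+As replicate 1 (-0.57, adjusted p = 0.0913), and it held in 12 of 15 alternatives. Against HFD it was lost without HFD replicate 1 (-0.45, adjusted p = 0.358), without HFD+As replicate 1 (-0.58, adjusted p = 0.188) and without either LFD array (-0.64, adjusted p = 0.0544), and held in 8 of 15. Against LFD+As it was lost without LFD+As replicate 1 (-0.65, adjusted p = 0.0516), LFD+As replicate 2 (-0.51, adjusted p = 0.207) or HFD+As replicate 1 (-0.52, adjusted p = 0.182), and held in 9 of 15. Its direction was the same in each of these fits. In these arrays the deviation of a gene from its mean went with its genomic span (first to last base, introns included). Spearman's rho between the deviation and the span, across 11958 genes, was -0.454 and -0.293 in HFD+As, 0.245 and -0.136 in HFD, 0.220 and 0.346 in LFD+As, and 0.342 and 0.138 in LFD. With that trend removed from each array, Col18a1 differed by -0.38 from LFD, by -0.41 from HFD and by -0.34 from LFD+As, with adjusted p of 0.055, 0.126 and 0.105, and none of the 3 was called. With no filter on low signals the adjusted p was 0.0304 against LFD, 0.0821 against HFD and 0.0665 against LFD+As, and after quantile normalization it was 0.0232, 0.0924 and 0.0578, so the call against LFD held under both settings and the other calls were lost. Over all genes the median difference between HFD+As and LFD was -0.10, and relative to that median Col18a1 stood at -0.54. With the span trend removed, Col18a1 stood at -0.38 relative to the median over all genes under that setting. The cause of the remaining difference was not tested.

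Type XV collagen, the closest relative of type XVIII, did not pass the test in any comparison. Col15a1 had signals of 7.92 and 7.99 in HFD+As, 8.07 and 8.36 in HFD, 8.06 and 7.88 in LFD+As, and 7.97 and 8.16 in LFD. The HFD+As arrays lay below the HFD arrays and overlapped the other groups, with a difference of -0.26 from HFD (adjusted p = 0.239) and of -0.11 from LFD. How many of all genes had both HFD+As arrays below both HFD arrays was not counted.

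Among the fibril-associated chains, Col14a1, whose product binds the surface of type I fibres, had the second largest difference. Its signals were 9.12 and 8.66 in HFD+As, 9.47 and 8.97 in HFD, 9.21 and 9.31 in LFD+As, and 9.31 and 9.27 in LFD. Both HFD+As arrays lay below both LFD arrays, as for 41.4% of all genes, but the HFD+As pools differed from each other by more than HFD+As differed from LFD. The difference from LFD was -0.40 (SE 0.17, interval -0.77 to -0.03, adjusted p = 0.128) and was not called. It was -0.17 without HFD+As replicate 2, -0.63 without HFD+As replicate 1, and -0.11 with the span trend removed. The 7 fibril-associated chains tested all had differences below 0 in HFD+As against LFD, with a median of -0.04 (0.10 with the span trend removed), and 0 were called. All 7 were also below 0 in HFD against LFD (median -0.085) and in LFD+As against LFD (median -0.076), which share the LFD arrays. In HFD+As against HFD and against LFD+As, 5 of the 7 were above 0. Over all genes, 7970 of 11963 differences lay below 0 in HFD+As against LFD.

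The fibrillar chains that make up scar tissue passed no test in any of the 6 comparisons. Col1a1, which encodes the alpha1 chain of type I collagen, had signals of 8.41 and 8.23 in HFD+As, 8.41 and 8.27 in HFD, 8.58 and 8.45 in LFD+As, and 8.36 and 8.43 in LFD. Its partner Col1a2 had 8.02 and 7.94 in HFD+As, 8.30 and 7.91 in HFD, 8.23 and 8.02 in LFD+As, and 8.12 and 8.17 in LFD. Col3a1, the type III chain, had 8.18 and 8.15 in HFD+As, 8.28 and 8.22 in HFD, 8.45 and 8.27 in LFD+As, and 8.29 and 8.42 in LFD. For Col3a1 both HFD+As arrays lay below all 6 others, and for Col1a2 they lay below both LFD arrays. Both HFD+As arrays lay below both LFD arrays for 41.4% of all genes, and the share below all 6 others was not counted. For Col1a1 the HFD+As, HFD and LFD arrays overlapped, while both LFD+As arrays lay above all 6 others. How many of all genes had both LFD+As arrays above all 6 others was not counted. In HFD+As against LFD the differences were -0.08 for Col1a1 (interval -0.33 to 0.18), -0.17 for Col1a2 (-0.46 to 0.13) and -0.19 for Col3a1 (-0.44 to 0.06). Col1a1 differed by 0.12 in LFD+As against LFD (interval -0.14 to 0.38) and by -0.06 in HFD against LFD (interval -0.31 to 0.20). An increase of 1 log2 unit in the signal of Col1a1 lies outside all 3 of its intervals. The background under that signal is unknown, so the intervals bound the signal and not the amount of transcript. Type V chains, which seed type I fibres, gave 0 calls. Col5a1 had 7.62 and 7.41 in HFD+As, 7.64 and 7.59 in HFD, 7.68 and 7.61 in LFD+As, and 7.57 and 7.69 in LFD, while Col5a2, below the limit of the test, lay between 6.76 and 7.08 over all arrays. Of the 10 fibrillar chains tested, 4 had positive and 6 negative differences in HFD+As against LFD, with a median of -0.07.

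The basement membrane chains Col4a1 and Col4a2, which start from the shared stretch shown above, had their lowest group means in HFD+As. Col4a1 had signals of 7.999 and 7.90 in HFD+As, 8.29 and 8.16 in HFD, 8.06 and 8.06 in LFD+As, and 8.13 and 8.14 in LFD. Col4a2 had 7.72 and 7.80 in HFD+As, 7.96 and 7.86 in HFD, 7.94 and 7.83 in LFD+As, and 7.84 and 7.88 in LFD. Both HFD+As arrays of each gene lay below all 6 other arrays. The share of all genes with this separation was not counted, and 41.4% of all genes had both HFD+As arrays below both LFD arrays. The largest of these differences was that of Col4a1 between HFD+As and HFD, -0.27 (interval -0.51 to -0.03, unadjusted p = 0.030, adjusted p = 0.15), which was not called. Against LFD, Col4a1 differed by -0.18 (interval -0.43 to 0.06) and Col4a2 by -0.10. The pairs Col4a3 with Col4a4 on chromosome 1, whose annotations overlap by 114 bases, and Col4a5 with Col4a6 on chromosome X, 1274 bases apart, gave 0 calls. Col4a3 differed by 0.07, Col4a4 by 0.05 and Col4a5 by -0.13 between HFD+As and LFD.

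Type VI chains gave 0 calls. Col6a1 had signals of 7.76 and 7.60 in HFD+As, 7.85 and 7.65 in HFD, 7.82 and 7.60 in LFD+As, and 7.69 and 7.72 in LFD. Col6a2 had 7.65 and 7.43 in HFD+As, 7.67 and 7.60 in HFD, 7.65 and 7.39 in LFD+As, and 7.47 and 7.68 in LFD. Col6a3 had 7.51 and 7.39 in HFD+As, 7.63 and 7.52 in HFD, 7.73 and 7.53 in LFD+As, and 7.51 and 7.58 in LFD. The groups overlapped for Col6a1 and Col6a2. The differences between HFD+As and LFD were -0.02, -0.04 and -0.09 for Col6a1, Col6a2 and Col6a3. Col6a1 and Col6a2 lie 85.2 kb apart on chromosome 10, and Col6a1 lies 326 kb from Col18a1. The second clusters of Col6a5 and Col6a6 were dimmer, between 5.97 and 6.64 and between 6.39 and 6.61 over the 8 arrays.

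The most positive differences came from chains near the dim end of the tested range. Col25a1, a membrane-spanning chain found in neurons, had signals of 7.28 and 7.34 in HFD+As, 7.03 and 7.14 in HFD, 7.25 and 7.05 in LFD+As, and 7.17 and 7.23 in LFD. It was the 1 chain of the 37 with both HFD+As arrays above both LFD arrays, and 7 chains (Col18a1, Col14a1, Col3a1, Col4a1, Col1a2, Col4a2 and Col23a1) had both below. Among all genes 41.4% had both HFD+As arrays below both LFD arrays, and the share with both above was not counted. Col25a1 differed by 0.11 from LFD, by 0.22 from HFD and by 0.16 from LFD+As, and 0 of these were called. It has the longest span of the tested chains, 420 kb, and with the span trend removed its difference from LFD was 0.44 (SE 0.12, adjusted p = 0.0476). Col24a1, a fibrillar chain of developing bone, had 7.22 and 7.33 in HFD+As, 6.99 and 7.19 in HFD, 7.19 and 7.09 in LFD+As, and 7.09 and 7.36 in LFD. Col8a1, a network-forming chain of vessel walls, had 7.27 and 7.05 in HFD+As, 6.99 and 7.17 in HFD, 7.29 and 7.06 in LFD+As, and 7.07 and 6.96 in LFD. Both HFD+As arrays of Col24a1 lay above the HFD and LFD+As arrays and between the LFD arrays, and the HFD+As arrays of Col8a1 overlapped those of every other group. How many of all genes had both HFD+As arrays above the HFD and LFD+As arrays was not counted. Col8a1 had the largest positive difference from LFD in HFD+As (0.15) and in LFD+As (0.16).

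Among the other chains, Col6a5 differed from LFD by 0.12 in HFD+As and by 0.15 in HFD. Col9a1 and Col11a1, chains of cartilage fibres, had the most negative differences in HFD against LFD, both -0.16. Col2a1, the main cartilage chain, and Col23a1, a membrane-spanning chain, differed by -0.19 and -0.15 in LFD+As against LFD. None of these passed the test. The membrane-spanning chains Col13a1 and Col17a1 differed by -0.07 and 0.00 in HFD+As against LFD. The fibril-associated Col16a1 and Col20a1 differed by -0.09 and -0.05. Col7a1, which anchors the epidermis, and Col26a1 differed by 0.02 and 0.04.

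**Figure D2:**
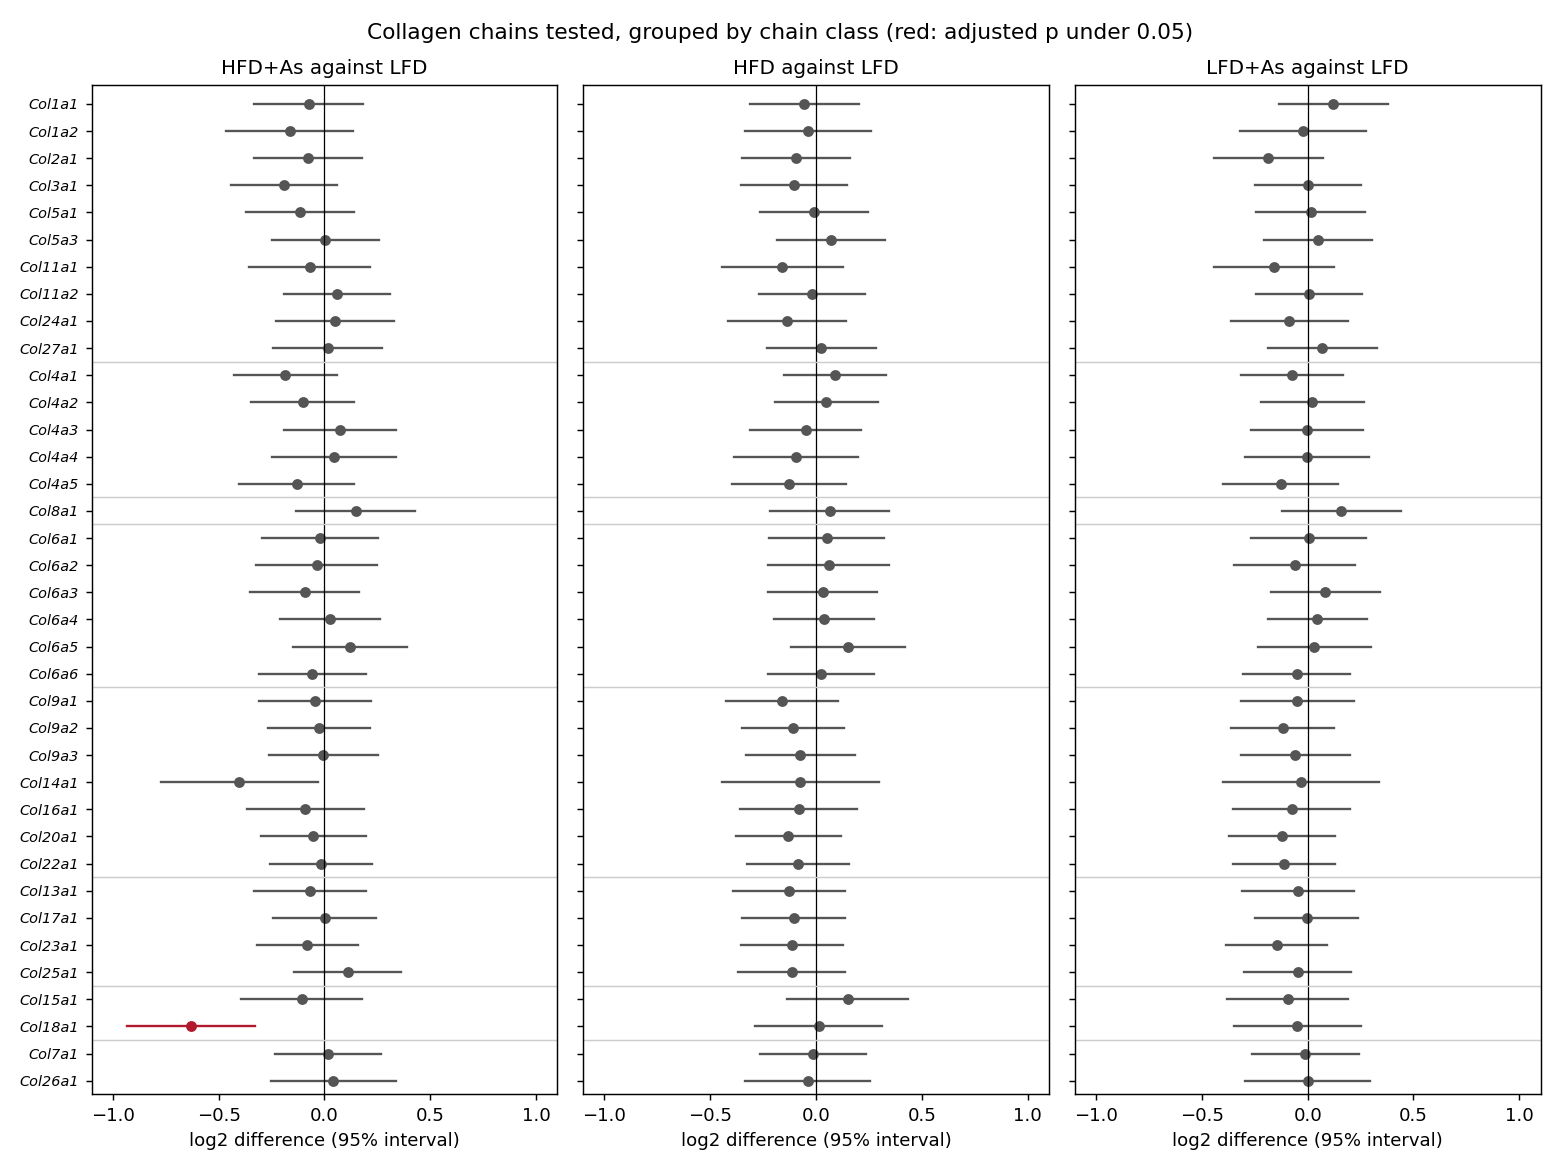
Log2 difference (x axis) of the 37 tested chains (rows, grouped by class from fibrillar at the top to anchoring and other chains at the bottom) in HFD+As, HFD and LFD+As, each against LFD. Points are the differences of group means and lines their 95% intervals, and red marks an adjusted p under 0.05. Col18a1 at -0.63 in HFD+As is the 1 red point, and apart from it and Col14a1 in HFD+As the intervals cross 0.

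Either exposure alone gave 0 called chains. In HFD against LFD the smallest adjusted p of a chain was 0.719, 0 chains had an unadjusted p under 0.05, and 0.46% of all genes were called (1232 genes had an unadjusted p under 0.05). In LFD+As against LFD the smallest adjusted p was 1.0, 0 chains had an unadjusted p under 0.05, and 0.0669% of all genes were called (401 genes with an unadjusted p under 0.05). The 37 chains split into 13 positive and 24 negative differences in both comparisons, with medians of -0.05 in HFD and -0.03 in LFD+As, against medians over all genes of 0.01 and -0.01. Both comparisons use the same LFD arrays, and these turned the split. Without LFD replicate 2 it was 21 positive and 16 negative in HFD and 26 and 11 in LFD+As, and without LFD replicate 1 it was 8 and 29 in HFD and 7 and 30 in LFD+As. Without LFD+As replicate 2 it was 22 and 15 in LFD+As, and without LFD+As replicate 1 it was 6 and 31.

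The median over the chains was -0.04 against LFD, 0.00 against HFD and 0.00 against LFD+As, while the medians over all genes were -0.10, -0.13 and -0.09. Col18a1 was the 1 chain called in each comparison. In HFD+As against HFD 3.63% of all genes were called and 3.25% were called lower. In HFD+As against LFD+As 10.3% were called and 8.43% were called lower. The interaction gave 0 called chains and 0.0% of all genes in limma's fit, with 1 chain (Col18a1) and 1659 genes at an unadjusted p under 0.05, and 17 genes called with an intensity trend and robust variance together. The direction of the chains depended on the scaling and on single arrays. Against LFD, 13 chains were positive and 24 negative as deposited, 24 were positive and 13 negative after quantile normalization (chain median 0.04, all genes 0.00), and 33 were positive and 4 negative with the span trend removed (chain median 0.17, all genes 0.00). Without LFD replicate 1 it was 3 positive and 34 negative (chain median -0.11, all genes -0.07), without LFD replicate 2 it was 20 and 17, without HFD+As replicate 1 it was 8 and 29, and without HFD+As replicate 2 it was 21 and 16. The calls over all genes split into 430 higher and 1479 lower as deposited, 856 and 944 after quantile normalization, and 547 and 591 with the span trend removed. Collagen genes are long, with a median span of 107 kb against 21.4 kb over all tested genes, and ran from 15.8 kb (Col9a2) to 420 kb (Col25a1). Whether the chains stood apart from other genes of the same span was not tested.

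**Figure D3:**
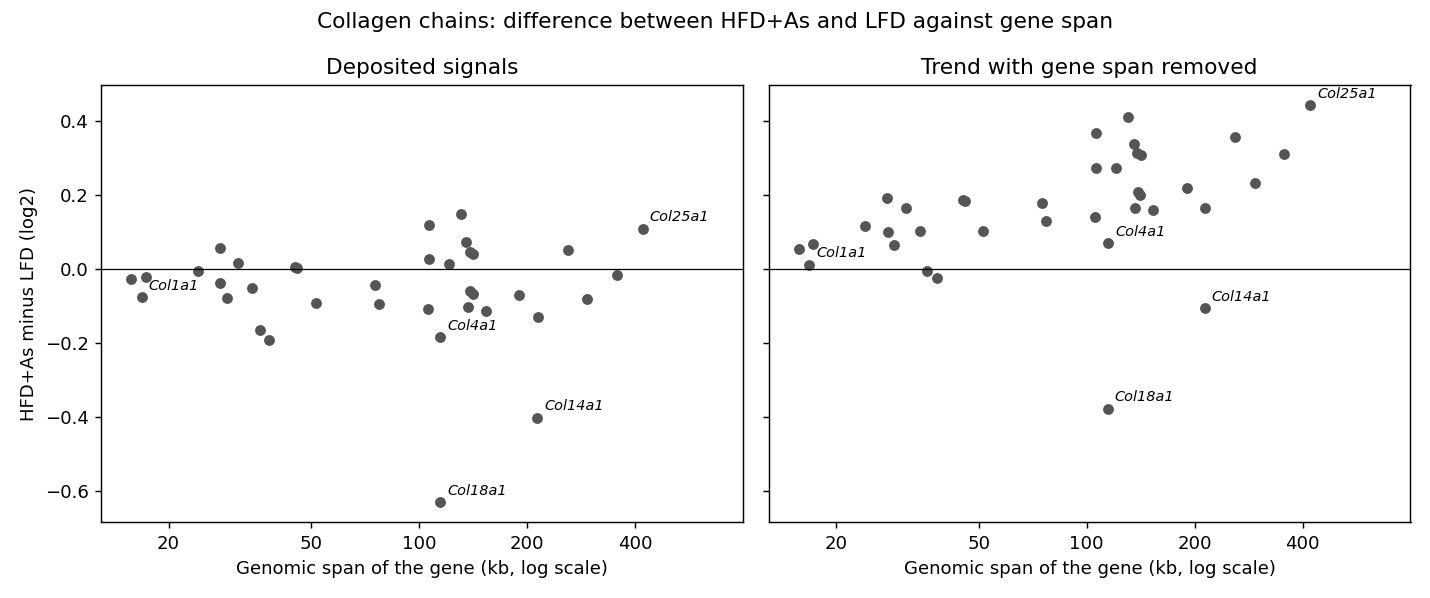
Log2 difference between HFD+As and LFD (y axis) of the 37 tested chains against the genomic span of the gene in kb (x axis, log scale), as deposited (left) and with the trend with span removed from each array (right). Col18a1 is the lowest point in both panels, at -0.63 and -0.38, while the median of the chains is at -0.04 in the left panel and 0.17 in the right.

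Genes that make, trim, bind and degrade collagen included 18 of 77 tested that were lower in HFD+As against LFD, where 12.4% of all genes were called lower. These lists were chosen with earlier results of these data known, so their shares are not independent of the data. Of 15 tested genes of collagen modification, folding and export, 1 was lower, Mia3 (-0.42, adjusted p = 0.0486), which carries bulky procollagen out of the endoplasmic reticulum. Of 8 processing and cross-linking genes 2 were lower, the lysyl oxidase relative Loxl4 (-0.63, adjusted p = 0.0447) and Bmp1 (-0.39, adjusted p = 0.0415), the protease that removes the C-terminal propeptide. The Bmp1 call was lost with no filter, after quantile normalization and with the span trend removed. It was also lost with replicate numbers fitted as a block and with only the 2 groups compared. Of 9 genes of breakdown and its inhibitors 3 were lower, the lysosomal protease Ctsb (-0.67, adjusted p = 0.00655), the gelatinase Mmp2 (-0.49) and the inhibitor Timp3 (-0.45). Of 7 receptors 1 was lower, the integrin Itga1 (-0.49). Of 19 matrix proteins that bind collagen or share its location 5 were lower, with Bgn, a small proteoglycan that binds collagen, at -0.76 (adjusted p = 0.00766) and Fn1, fibronectin, at -0.55 (adjusted p = 0.0106). Of 19 genes of TGF-beta and other profibrotic signals 6 were lower, with the co-receptor Eng at -0.79 (adjusted p = 0.0128) and the matricellular growth factor Ccn2 at -0.46. In these 6 lists 0 genes were called higher, and the list medians ran from -0.11 to -0.28, against -0.10 over all genes. With the span trend removed these medians lay between -0.11 and 0.11, against 0.00 over all genes, and 4 of the 18 remained called. Under that setting 1 gene of breakdown and its inhibitors was called higher.

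Bgn had signals of 10.53 and 10.66 in HFD+As, 11.33 and 10.81 in HFD, 11.29 and 11.30 in LFD+As, and 11.36 and 11.37 in LFD, so both HFD+As arrays lay below all others. The share of all genes with this separation was not counted, and 41.4% of all genes had both HFD+As arrays below both LFD arrays. Loxl4 had 7.27 and 7.20 in HFD+As, 8.61 and 8.03 in HFD, 7.98 and 8.09 in LFD+As, and 8.17 and 7.57 in LFD. Its difference was -1.08 from HFD (adjusted p = 0.0228) and -0.80 from LFD+As. P4ha1, a catalytic subunit of the prolyl hydroxylase that stabilises the triple helix, was not called against LFD. It had 8.16 and 8.38 in HFD+As, 9.23 and 8.70 in HFD, 9.01 and 8.73 in LFD+As, and 8.52 and 8.61 in LFD, and it differed by -0.69 from HFD (adjusted p = 0.0416) and by -0.60 from LFD+As. HFD against LFD, LFD+As against LFD and the interaction gave 0 calls in all of these lists.

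Of 8 sinusoidal endothelial markers tested 4 were lower in HFD+As against LFD, 1 against HFD and 3 against LFD+As. In these comparisons 12.4%, 3.25% and 8.43% of all genes were called lower. The marker lists were also chosen with earlier results of these data known. Against LFD the list median was -0.44 (-0.39 with the span trend removed), with the highest marker at 0.22 and Stab2, a scavenger receptor of these cells, at -0.91 (adjusted p = 0.0042). The mean signal of the 8 was 9.35 and 9.34 in HFD+As, 9.95 and 9.51 in HFD, 9.63 and 9.70 in LFD+As, and 9.83 and 9.64 in LFD. Of 9 stellate cell markers 1 was lower (Reln, -0.53), with means of 8.73 and 8.59 in HFD+As, 8.91 and 8.77 in HFD, 8.76 and 8.81 in LFD+As, and 8.92 and 8.78 in LFD. Of 8 macrophage markers 1 was lower (Csf1r, -0.66) and 1 higher (Marco, 0.54) against LFD, and 2 were lower against HFD (Adgre1, -0.61, and Cd5l, -0.59). Of 5 myofibroblast, 6 portal fibroblast, 2 cholangiocyte, 2 smooth muscle and 1 adipocyte markers tested 0 were called in HFD+As against LFD. Of 4 hepatocyte markers 1 was lower there (Cps1, -0.39). Against LFD+As, 1 of the 2 cholangiocyte markers was lower. The part of these cell markers in the level of Col18a1 was not tested. The 26 calls of the pathway and marker lists in HFD+As against LFD fell to 2 without LFD replicate 1 and to 2 without HFD+As replicate 1, to 8 without LFD replicate 2 and 15 without HFD+As replicate 2, and to 9 with the span trend removed. Without LFD replicate 1 the differences were -0.77 for Bgn and -0.74 for Eng, and neither was called there. Loxl4 was at -0.33 (adjusted p = 0.375) without LFD replicate 1, and its call was lost in 8 of 15 alternatives. Itga1 was at -0.30 without HFD+As replicate 1, and Reln at -0.30 without HFD+As replicate 2, and neither was called there. With no filter 11 of the 26 calls held, and after quantile normalization 12. Against HFD 0 of 12 calls held with no filter, after quantile normalization, with the span trend removed, without HFD replicate 1 and without HFD+As replicate 1. Against LFD+As 0 of 17 held with the span trend removed, and also 0 when HFD+As replicate 1 or LFD+As replicate 2 was left out. With no filter 2 of these 17 held, and after quantile normalization 5.

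**Figure D4:**
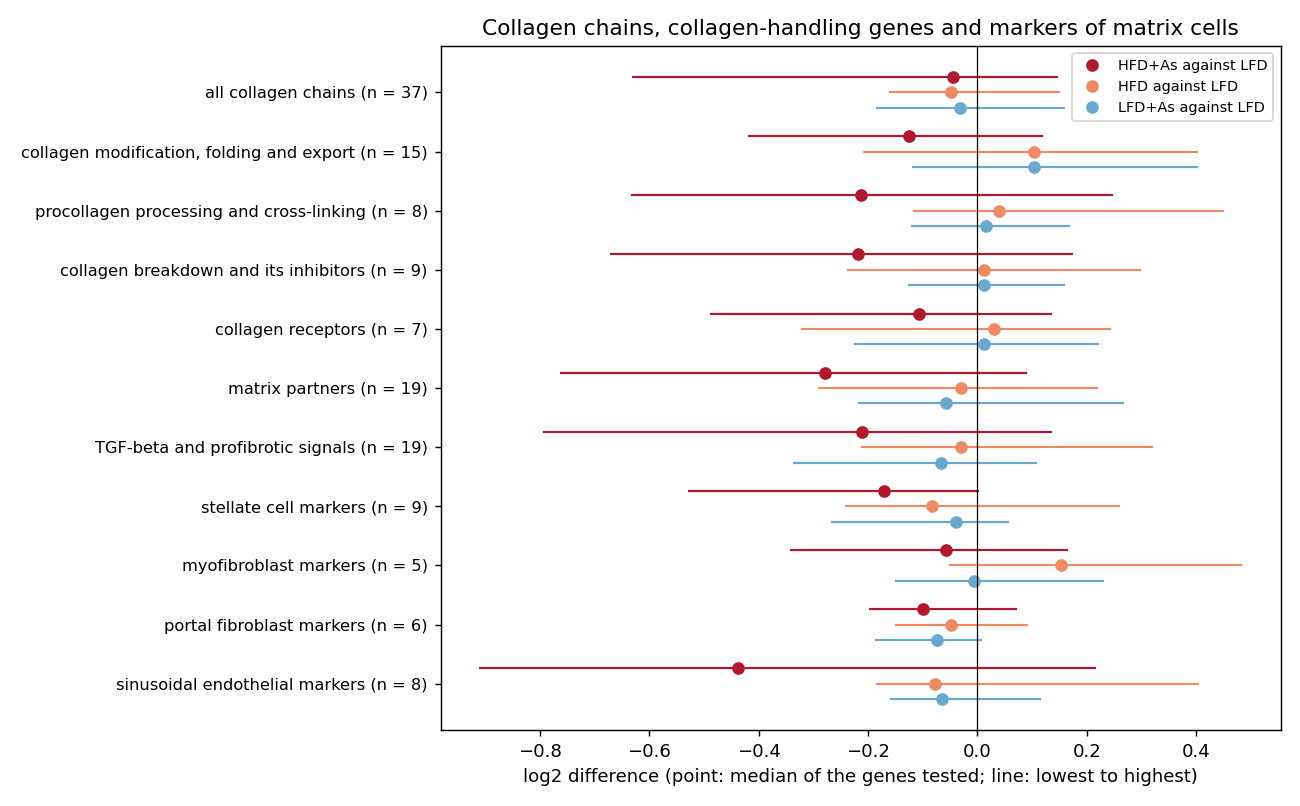
Log2 difference (x axis) in HFD+As, HFD and LFD+As, each against LFD, for the collagen chains, 6 lists of genes that handle or bind collagen and 4 lists of cell markers (rows, with the number of genes tested). Points are list medians and lines run from the lowest to the highest gene. In HFD+As the sinusoidal endothelial markers have a median of -0.44 and the collagen chains one of -0.04.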

How the data were processed

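Liver RNA of 4 groups of mice was measured on 8 arrays. Per the submitters' processing notes, Affymetrix Expression Console 1.0 made the deposited log2 signals of the clusters; the background, normalization and summary methods are not given in the sources used here. They were used as deposited. Of the clusters, 21789 had 1 gene symbol, 1621 several and 12146 none, and all 44 chain symbols matched RefSeq (GRCm38.p6). The members and gene lists were chosen with earlier results of these data known. Differences were fitted with limma 3.58.1 in R 4.3.3, as 4 group means over 8 arrays with moderated variances (4 residual and 9.32 prior degrees of freedom), in 6 comparisons. Benjamini-Hochberg adjusted p-values over all 11963 tested genes were called under 0.05. The script was tested on simulated data. Chains known from liver, chains called, and the 3 highest and 3 lowest chains per comparison were named; from each list up to 4 called genes, or 2 with the smallest p, were eligible. The number of arrays limits precision (median SE 0.127), and p-values measure the spread between pools. Alternatives changed the filter, normalization, arrays fitted, variance prior, cluster choice, span trend, replicate block and each array in turn.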

Additional observations from a re-analysis of the deposited data

How the results depend on the processing

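Col18a1 was the only chain called as deposited, in HFD+As against LFD, HFD and LFD+As, so only its calls could be lost or reversed. Over 15 alternatives for each of these comparisons, 16 of its calls were lost and 0 reversed. Of the 3293 values of single chains in all, 1 gained a call (Col25a1, span trend removed). Another 225 values, called neither before nor after, moved by at least 1 SE. Changes of sign without a call were not counted. Called chains numbered 0 to 1 when 1 array was left out, in HFD+As against each of LFD, HFD and LFD+As. Against HFD and against LFD+As, 0 chains were called with no filter on low signals (all 19938 genes tested), after quantile normalization and with the span trend removed. Col18a1 ranged from -0.84 to -0.41 against HFD and from -0.65 to -0.34 against LFD+As. Counts over all genes moved more. In HFD+As against LFD (1909) they were 1084 with no filter, 1138 with the span trend removed and 206 to 2050 without 1 array. In HFD+As against HFD (434) they were 29 with no filter, 28 after quantile normalization, 751 with an intensity trend and robust variance, 42 with the span trend removed and 24 to 1121 without 1 array. In HFD+As against LFD+As (1227) they were 165, 641 and 66 with no filter, quantile normalization and the span trend removed, and 17 to 1481 without 1 array. In HFD against LFD (55) they were 13 with no filter, 14 after quantile normalization and 0 to 72 without 1 array. In LFD+As against LFD (8) they were 1, 4 and 18 with no filter, quantile normalization and only the 2 groups compared, and 0 to 26 without 1 array. For the interaction (0) they were 17 with an intensity trend and robust variance and 0 to 23 without 1 array. Except as stated, the cause was not tested. With no detection calls, the background behind the dim chains is unknown.

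Replicate numbers were tried as a block. Deviations of same-numbered arrays correlated between -0.217 and 0.180. With 1 such deviation per gene and group, these values cannot show whether the numbers pair the pools. With the replicate block the count in HFD+As against HFD was 230 in place of 434, and the number of called chains stayed at 1, with adjusted p for Col18a1 of 0.0163 against LFD, 0.0441 against HFD and 0.0352 against LFD+As.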
